A study of Mus musculus with 10 samples.

Results

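The imprinted growth genes are 10 mouse genes, Igf2, H19, Dlk1, Cdkn1c, Peg3, Ndn, Mest, Plagl1, Grb10 and Snrpn, chosen by name as imprinted genes of growth and neural development from the 38803 gene symbols listed for each library. All 10 were found in every library. RNA sequencing of total RNA was compared between 5 mutant and 5 control libraries of dorsal telencephalon, the tissue that forms the cerebral cortex, at embryonic day 12. Mutants had the genotype Rnu11Flx/Flx::Emx1-Cre+/- and controls Rnu11WT/Flx::Emx1-cre+/-, both on a C57/Bl6 - 129 SvJ background. Rnu11 encodes the U11 small nuclear RNA, which recognises the 5′ end of the rare minor introns. Both groups carried Emx1-Cre and at least 1 floxed copy, so the controls could recombine their floxed copy too. Emx1-Cre acts in progenitors of the dorsal telencephalon and their descendants, and vessels, blood, meninges and microglia of the same dissection lie outside that lineage. The comparison asks how these genes stand in the early cortex with Rnu11 floxed on both chromosomes, against floxed on a single one.

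Imprinted genes are transcribed mainly or wholly from the copy inherited from 1 parent, and they lie in clusters that share a control region methylated in the egg or the sperm. Many of them act on fetal growth, and it is commonly described that paternally expressed members promote growth while maternally expressed members restrain it. In the embryonic head several of them, Igf2 and H19 above all, are abundant in mesenchyme, meninges and choroid plexus, whereas others such as Ndn and Snrpn are best known from neurons. The libraries give the summed level of both copies, so the parental origin of the transcripts was not measured.

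Levels are in FPKM, which scales fragments by transcript length and by library depth, as the authors deposited them. Depth, a rough estimate, was least in control 4 with 9710000 fragments and greatest in mutant 5 with 21200000, so that a lone fragment from 2000 bases of transcript counted for 0.0515 and 0.0236 FPKM. The cortical markers Emx1, Emx2, Pax6 and Lhx2 were present in all 10 libraries, at 7.13 FPKM or more. Rnu11 lay at 473 to 1421 FPKM in mutants and at 1913 to 2817 FPKM in controls, without overlap (p = 0.00794 in an exact permutation test, two-sided, and 5 against 5 cannot give a smaller p). In limma over all genes its log2 difference of -1.497 did not pass (adjusted p = 0.118), and it was -2.02 in the first library set defined next (adjusted p = 0.00185) and -0.71 in the second. Mutant 4, mutant 5 and control 5, called the second library set, stood apart from the other 7 libraries in short RNAs. Rny1, a Y RNA used here to tell the sets apart, measured 137459 to 257420 FPKM in these 3 and 40157.9 to 93172.5 FPKM in the first set. Control 4 stood apart in markers of the ventral telencephalon, the neighbouring region that makes inhibitory neurons, with a summed level over 8 markers of 45.3 FPKM against 1.35 to 15.0 FPKM in the 9 other libraries. Whether the libraries stem from different embryos is not in the labels, and p-values therefore measure only the spread between these libraries.

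None of the 10 imprinted growth genes differed between mutants and controls beyond the spread between libraries. All 10 passed the filter of at least 1 FPKM in at least 5 libraries, and 0 were called at an adjusted p under 0.05 (limma on log2(FPKM + 1), Benjamini-Hochberg over 13522 tested genes), where 21 of all tested genes, or 0.155%, were called, 0.0887% higher and 0.0666% lower in mutants. With the library set as a further term 0 members were called for genotype, against 0.547% of all genes. The number with an unadjusted p under 0.05 was also 0, against 8.76% of all tested genes. Values of mutants and controls overlapped for each of the 10, whereas 1.52% of tested genes lay higher and 0.377% lower in mutants without overlap. The log2 differences, mutant minus control, ran from -0.05 for Peg3 to 0.29 for H19 with a median of 0.18. The median of all tested genes was itself 0.11. Differences lay above 0 for 9 of the 10 members and for 75.7% of all tested genes, and for 6 of the 10 members once the libraries were rescaled to a common median ratio. Relative to the median of all genes, 7 members were above and 3 below, of which Plagl1 lay at the median to within rounding.

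**Figure D1:**
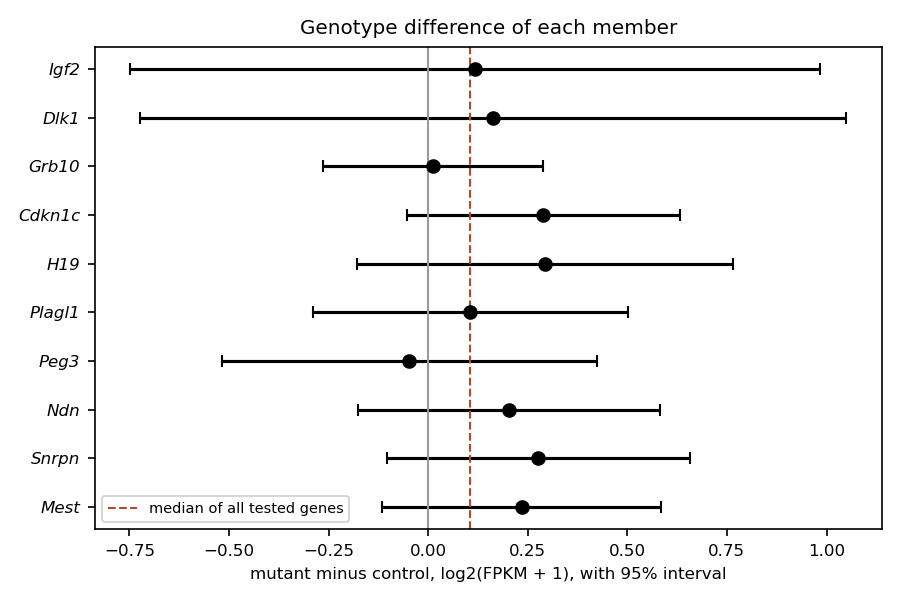
Log2 difference, mutant minus control, of each imprinted growth gene on the log2(FPKM + 1) scale (points) with its 95% interval from limma (bars). Each interval spans 0, and the dashed line marks the median of all tested genes at 0.11.

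The order of levels was alike in the groups. Averaged over the 10 libraries, Grb10 had the highest level, at 190.3 ± 22.3 FPKM, followed by H19 at 171 ± 45.2 and Mest at 90.5 ± 17.6 FPKM (SD, n = 10). Igf2, Cdkn1c, Ndn, Plagl1, Peg3 and Snrpn came next, at 64.7, 50.03, 47.4, 36.7, 29.9 and 17.5 FPKM on average. Dlk1 was last, at 3.15 ± 2.42 FPKM. Among 11021 tested protein-coding genes in controls, the level of Grb10 lay above 97.9% of genes and that of Dlk1 above 22.4%. Neighbours in this order often changed places between libraries. Grb10 was above H19 in 7 of 10 libraries, Mest above Igf2 in 6, Igf2 above Cdkn1c in 6 and Cdkn1c above Ndn in 4. Peg3 lay above Snrpn, and Snrpn above Dlk1, in each of the 10.

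**Figure D2:**
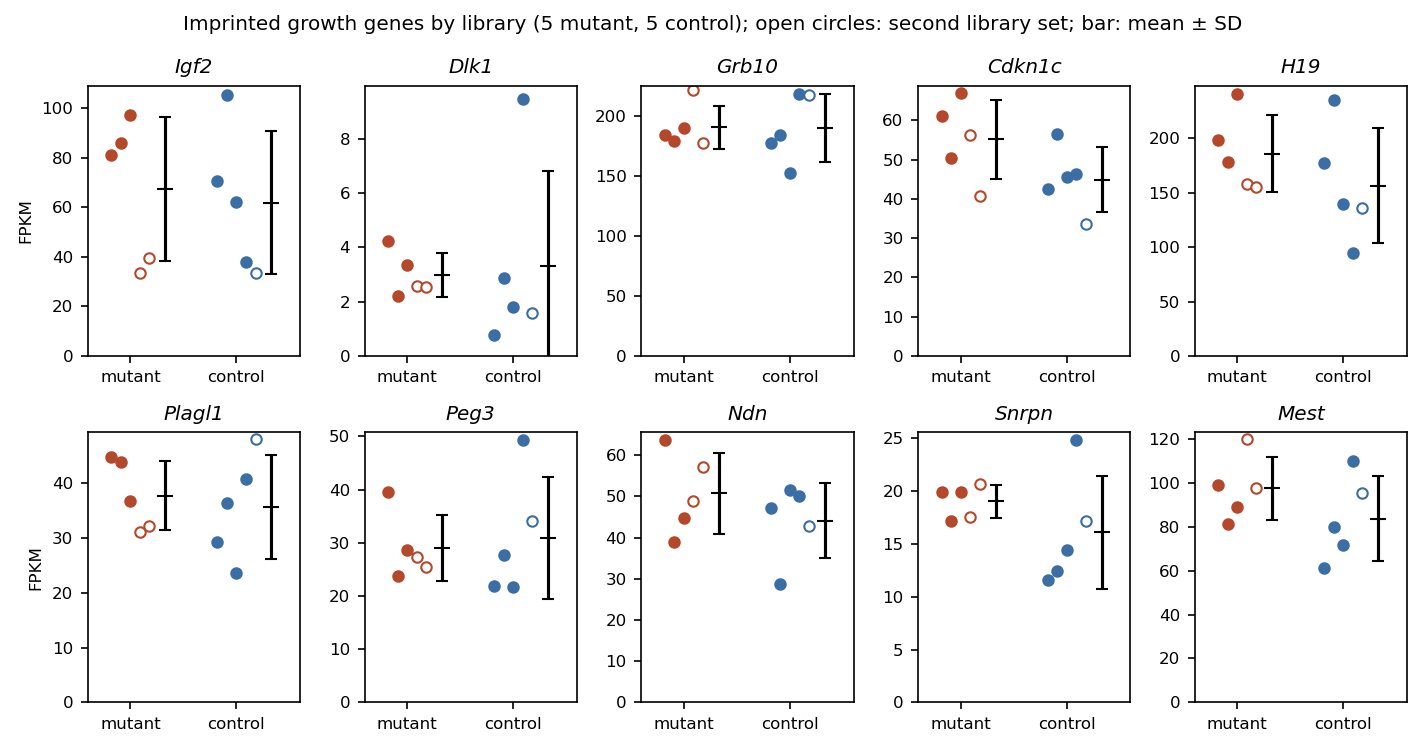
FPKM of each imprinted growth gene in the 5 mutant libraries (red, left) and the 5 control libraries (blue, right), with open circles for the second library set and bars for the mean ± SD of a group, the lower bar of Dlk1 in controls being clipped at 0. The groups overlap in each panel, and Igf2 is at 33.3 to 39.4 FPKM in the open circles of both genotypes.

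Igf2, the insulin-like growth factor that drives fetal growth through the type 1 IGF receptor, stood at 81.1, 86.1, 97.4, 33.3 and 39.4 FPKM in mutants 1 to 5, against 70.8, 105, 62.3, 37.9 and 33.4 FPKM in controls 1 to 5. Both groups contained high and low libraries, and the spread within a group was wider than the gap between the groups. The means were 67.5 ± 29.1 FPKM in mutants and 62.0 ± 29.0 FPKM in controls (SD, n = 5 each). The log2 difference was 0.12 with a 95% interval from -0.75 to 0.98 (limma, adjusted p = 0.947; exact two-sided permutation test, p = 0.746). Within the library sets it was 0.43 in the first and 0.11 in the second, where a single control was available. Igf2 (ENSMUSG00000048583.16) lies on chromosome 7 from 142650766 to 142666816 on the minus strand of GRCm38. Its exons overlap those of the opposite-strand gene Igf2os, which was at 0.0639 to 0.275 FPKM.

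The level of Igf2 set apart libraries of both genotypes. It was 33.3 to 39.4 FPKM in mutant 4, mutant 5, control 5 and control 4, and 62.3 to 105 FPKM in the 6 other libraries. In a fit with genotype and library set as terms, the second set differed from the first by a log2 value of -1.13 (limma, adjusted p = 0.0142). The sets had been formed from Rny1 values of these libraries. No other member passed for the set term, with Cdkn1c next (limma, adjusted p = 0.063), and the share of all genes passing for it is not given here. The same 4 libraries had the lowest summed level of mesenchyme, pericyte and meningeal markers. The 12 markers, which include the collagen genes Col1a1, Col1a2 and Col3a1 and the pericyte gene Rgs5, summed to 65.5 to 94.5 FPKM in those 4 libraries and to 97.0 to 181 FPKM in the other 6. Col1a1, Col1a2, Col3a1, Kcnj8 and Aldh1a2 were each lower in those 4 libraries than in any of the other 6, and the rest of the 12 overlapped. Rgs5 was at 2.32 to 3.75 FPKM in the 4 libraries and at 2.46 to 6.03 FPKM in the other 6. Lum was at 10.8 to 30.1 FPKM in the 4 and at 20.8 to 31.9 FPKM in the other 6. By genotype the sum over the 12 was 73.3 to 181 FPKM in mutants and 65.5 to 153 FPKM in controls, and none of the 12 was at 0 in any library. Markers of microglia and macrophages, 8 genes with none at 0 in any library, split the libraries in the same way. They summed to 21.9 to 40.4 FPKM in those 4 libraries and to 44.2 to 112.7 FPKM in the other 6, and by genotype to 33.6 to 112.7 FPKM in mutants and 21.9 to 55.6 FPKM in controls. Other lists did not split in this way. Choroid plexus and hem markers summed to 168 to 253 FPKM in those 4 libraries and to 222 to 412 FPKM in the other 6. Endothelial sums, at 30.5 to 40.5 and 28.1 to 59.8 FPKM, and erythroid sums, at 3473 to 7929 and 4505 to 8971 FPKM, overlapped too. What part any of these cells had in the Igf2 level was not tested, and in bulk tissue fewer cells of a type and less RNA per cell cannot be told apart.

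Likeness of other genes to Igf2 was measured as the root mean square difference between log2(FPKM + 1) profiles over the 10 libraries, each centred on its own mean, against each of the other tested genes and without a test. The 4 nearest genes were Lox at 0.10, Col1a2 at 0.12, Cyba at 0.17 and Bgn at 0.19, where the median gene was at 0.69. Lox encodes an enzyme that crosslinks collagen, Col1a2 a chain of type I collagen, Cyba a subunit of NADPH oxidase and Bgn the matrix proteoglycan biglycan. Col1a2 is also among the 12 mesenchyme markers, and ranged from 6.47 to 24.9 FPKM over the libraries. Among the other members the nearest to Igf2 was H19, at 0.40, and the farthest was Dlk1, at 0.94.

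H19, a long non-coding RNA that shares enhancers with Igf2 and is made from the maternal copy, stood at 198, 179, 241, 158 and 155 FPKM in mutants 1 to 5, against 177, 235, 139, 94.2 and 136 FPKM in controls 1 to 5. Mutant 3 and control 2 were the highest, and control 4 was the lowest of all 10. The means were 186 ± 35.3 FPKM in mutants and 156 ± 52.9 FPKM in controls (SD, n = 5 each). The log2 difference was 0.29 with a 95% interval from -0.18 to 0.77 (limma, adjusted p = 0.708; exact two-sided permutation test, p = 0.278), and within the library sets it was 0.41 in the first and 0.20 in the second. It was 0.13 without control 4 and 0.46 without control 2. The 4 genes nearest in profile were Abca9 at 0.11, Tec at 0.14, Col6a1 at 0.145 and Serpinf1 at 0.146. Of these Col6a1 encodes a collagen of connective tissue and Serpinf1 a secreted serpin. H19 (ENSMUSG00000000031.16) lies on chromosome 7 from 142575529 to 142578143, on the same strand as Igf2.

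The ratio of H19 to Igf2 separated the library sets and not the genotypes. It was 2.44, 2.07, 2.47, 4.74 and 3.93 in mutants 1 to 5, against 2.50, 2.23, 2.24, 2.49 and 4.08 in controls 1 to 5. In the 3 libraries of the second set it was 3.93 to 4.74, and in the 7 of the first set 2.07 to 2.50, with mutants and controls interleaved. Control 4, low for both genes, kept a ratio inside the range of the first set. Being formed within a library, the ratio does not move with a rescaling of that library. It was computed after the values of both genes had been seen, and no test is given.

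**Figure D3:**
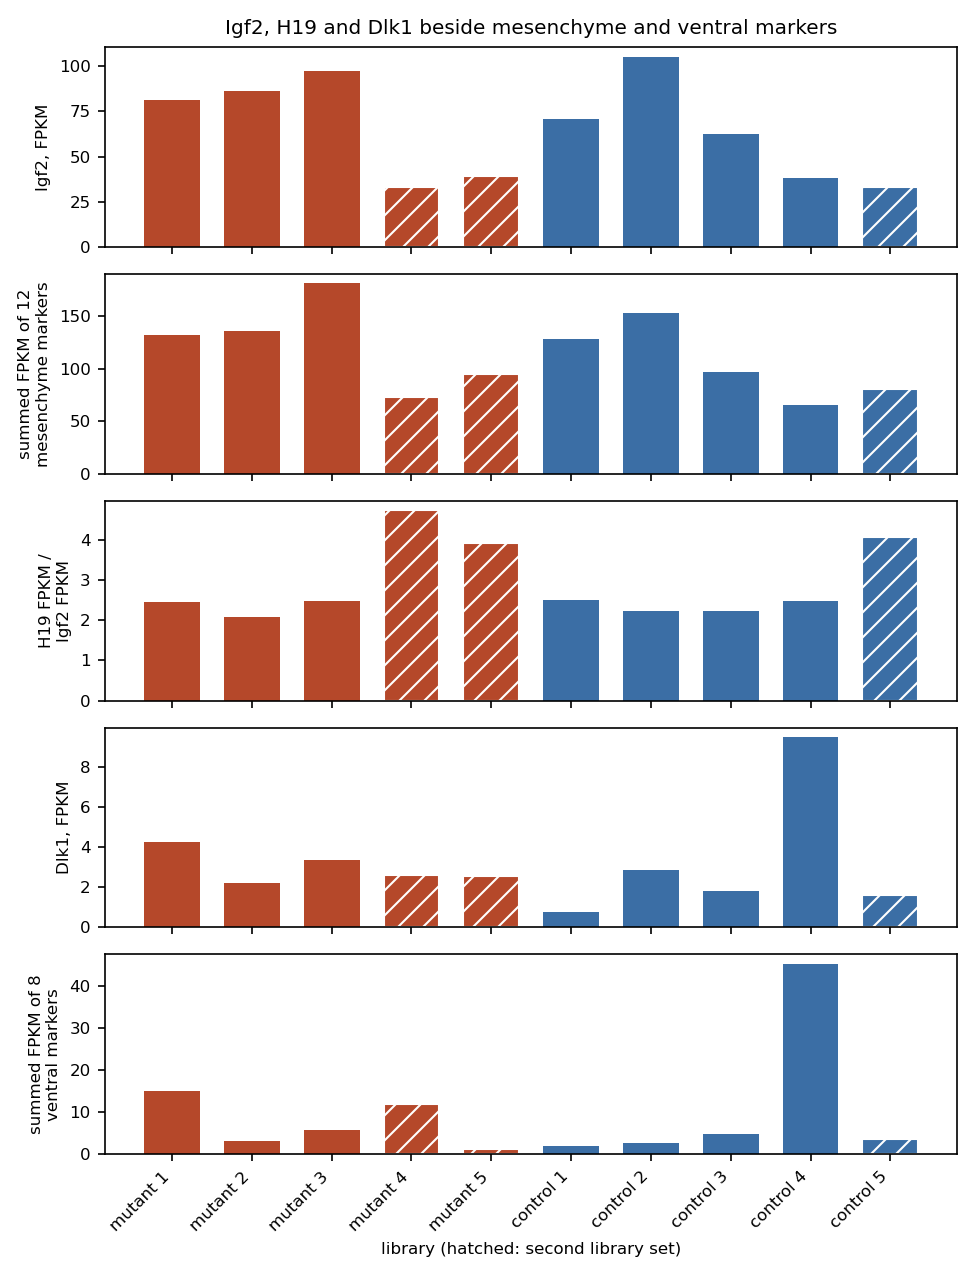
From top to bottom, bars give Igf2 in FPKM, the summed FPKM of 12 mesenchyme, pericyte and meningeal markers, the ratio of H19 to Igf2, Dlk1 in FPKM and the summed FPKM of 8 ventral telencephalon markers, in mutants 1 to 5 (red) and controls 1 to 5 (blue), hatched for the second library set. Igf2 and the mesenchyme sum are lowest in the same 4 libraries, as is the sum of microglial markers, which is not drawn, the ratio is 3.93 to 4.74 in the second set, and Dlk1 is highest at 9.46 FPKM in control 4, where the ventral sum is 45.3 FPKM.

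Both Igf2 and H19 carry a microRNA gene, and their mature sequences from RefSeq (GRCm38.p6) are shown because the files list these hairpins as separate rows beside their abundant hosts. Mir675 lies in an exon of H19 and Mir483 in an intron of Igf2. Capitals mark the seed, bases 2 to 8, and no seed is shared among the 4.
mmu-miR-675-5p: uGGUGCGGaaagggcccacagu
mmu-miR-675-3p: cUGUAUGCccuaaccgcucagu
mmu-miR-483-5p: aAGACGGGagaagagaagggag
mmu-miR-483-3p: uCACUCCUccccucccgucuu
Mir675, Mir483 and Mir335, the last in an intron of Mest, were listed at 0 FPKM in all 10 libraries. Libraries of total RNA are not made to hold mature microRNAs, so these zeros say nothing of the microRNA level.

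Dlk1, a membrane protein with epidermal growth factor repeats that restrains differentiation of precursor cells, was the least abundant member. It stood at 4.25, 2.19, 3.37, 2.59 and 2.54 FPKM in mutants 1 to 5, against 0.777, 2.86, 1.82, 9.46 and 1.598 FPKM in controls 1 to 5. Control 4 was the highest library and control 1 the lowest, 12.2 times apart, so that the controls enclosed the whole range of the mutants. The means were 2.99 ± 0.825 FPKM in mutants and 3.30 ± 3.52 FPKM in controls (SD, n = 5 each). The log2 difference was 0.16 with a 95% interval from -0.72 to 1.05 (limma, adjusted p = 0.921; exact two-sided permutation test, p = 0.738). The mean of the log values is higher in mutants while the mean of the FPKM values is lower. Without control 4 the log2 difference was 0.56 (adjusted p = 0.379), and without control 1 it was -0.08 (adjusted p = 0.984). In the first library set it was 0.15 and in the second 0.46.

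Dlk1 was highest in the library with the highest level of ventral telencephalon markers. Those 8 markers, Dlx1, Dlx2, Dlx5, Gad1, Gad2, Gsx2, Nkx2-1 and Lhx6, summed to 1.35 to 15.0 FPKM in mutants, highest in mutant 1, and to 1.99 to 45.3 FPKM in controls, highest in control 4. Mutant 1 and control 4 were also the highest libraries of their groups for Dlk1, whereas mutant 4, with a sum of 12.03 FPKM, had Dlk1 at 2.59 FPKM. Gsx2 and Nkx2-1 were at 0 in some libraries. Genes near to Dlk1 in profile included Scube1 at 0.22, Fam53b at 0.27 and Shc3 at 0.28, with the median gene at 0.65. The part of ventral tissue in the Dlk1 level was not tested. Dlk1 (ENSMUSG00000040856.17) lies on chromosome 12 from 109452823 to 109463336 and overlaps no other annotated gene.

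Among the neighbours of Dlk1, Meg3 and Rian were likewise highest in mutant 1 and control 4 of their groups. Meg3, the maternally expressed non-coding RNA of the cluster, stood at 19.9 FPKM in mutant 1 and 9.53 to 10.4 FPKM in the other mutants, against 18.95 FPKM in control 4 and 4.66 to 8.22 FPKM in the other controls. Rian, another maternally expressed non-coding RNA, was at 108 FPKM in mutant 1 and 126 FPKM in control 4. Of the 6 neighbours fixed for this cluster 4 were tested and 0 were called. The log2 differences were 0.54 (SE 0.33) for Meg3, 0.25 for Rian and 0.33 for Begain (limma, lowest adjusted p = 0.520). The list's median was 0.29, where that of all genes was 0.11.

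Grb10, an adaptor protein that dampens signalling from the insulin and IGF receptors, had the narrowest spread of the 10. It stood at 184, 179, 190.3, 222 and 177 FPKM in mutants 1 to 5, against 178, 184, 152, 218 and 218 FPKM in controls 1 to 5. The highest library was 1.45 times the lowest. The means were 190.5 ± 18.04 FPKM in mutants and 190.0 ± 28.2 FPKM in controls (SD, n = 5 each). The log2 difference was 0.012 with a 95% interval from -0.26 to 0.29 (limma, adjusted p = 0.984; exact two-sided permutation test, p = 0.865), and within the library sets it was 0.02 in the first and -0.13 in the second. Grb10 (ENSMUSG00000020176.17) lies on chromosome 11 from 11930508 to 12038683 and overlaps no other annotated gene. It is known to be transcribed from the maternal copy in most tissues and from the paternal copy in neurons, and these libraries do not separate the copies.

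Partners of Igf2 in growth signalling gave no call. Of the 14 genes fixed for this list all 14 were tested and 0 were called, with a median log2 difference of 0.11 against 0.11 for all genes. Igf1 and Igfbp2 were among those with the smallest p. Igf1, the second IGF ligand, averaged 1.98 ± 0.618 FPKM in mutants and 1.17 ± 0.491 FPKM in controls (SD, n = 5 each), a log2 difference of 0.46 (SE 0.18; limma, adjusted p = 0.503). Mutant 1 had Igf1 at 3.08 FPKM, and the other mutants at 1.63 to 1.79 FPKM lay below control 5 at 1.85 FPKM. Within the library sets the Igf1 difference was 0.67 in the first and -0.11 in the second. Igfbp2, a secreted IGF binding protein abundant in the embryonic brain, averaged 97.9 ± 11.9 FPKM in mutants and 87.1 ± 7.80 FPKM in controls.

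Cdkn1c encodes p57, an inhibitor of cyclin-dependent kinases that acts when cortical progenitors leave the cell cycle. It stood at 61.0, 50.5, 67.1, 56.3 and 40.8 FPKM in mutants 1 to 5, against 42.6, 56.6, 45.6, 46.2 and 33.6 FPKM in controls 1 to 5. Mutants 1 and 3 lay above each control, and mutant 5 below all controls but control 5. The means were 55.1 ± 10.1 FPKM in mutants and 44.9 ± 8.27 FPKM in controls (SD, n = 5 each). The log2 difference was 0.29 with a 95% interval from -0.05 to 0.63, which had the smallest p of the 10 members but did not pass (limma, adjusted p = 0.617; exact two-sided permutation test, p = 0.135). The first library set gave 0.31 and the second 0.50, and without control 5 it was 0.19. Cdkn1c (ENSMUSG00000037664.13) lies on chromosome 7 from 143458339 to 143461050, and its exons overlap the opposite-strand gene Gm44732, so its value is uncertain to that extent.

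Igf2, H19 and Cdkn1c belong to adjoining imprinted domains of distal chromosome 7, and the other genes there were mostly at low levels. Of 13 neighbours fixed for the region 12 were in the files and 4 passed the filter, of which 0 were called. Ins2, Ascl2, Kcnq1, Slc22a18, Phlda2, Tnfrsf23 and Nctc1 stayed under 1 FPKM in each library, and Th reached 3.65 FPKM in control 4 alone. Cd81, a tetraspanin at the edge of the domain, averaged 41.8 ± 4.61 FPKM in mutants and 32.96 ± 4.12 FPKM in controls (SD, n = 5 each), a log2 difference of 0.33 (SE 0.11; limma, adjusted p = 0.436). For Cd81 the difference was 0.49 in the first library set and -0.06 in the second. Osbpl5 and Tssc4 lay at log2 differences of 0.06 and 0.03.

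Plagl1, also called ZAC1, is a zinc finger transcription factor that can halt the cell cycle and is known in mouse to regulate other imprinted genes. It stood at 44.7, 43.8, 36.8, 31.2 and 32.2 FPKM in mutants 1 to 5, against 29.3, 36.5, 23.6, 40.8 and 48.0 FPKM in controls 1 to 5. The second set held the highest control and the lowest mutants. The means were 37.7 ± 6.33 FPKM in mutants and 35.7 ± 9.56 FPKM in controls (SD, n = 5 each), a log2 difference of 0.11 with a 95% interval from -0.29 to 0.50 (limma, adjusted p = 0.877; exact two-sided permutation test, p = 0.627). Within the library sets the difference was 0.37 in the first and -0.59 in the second. The difference between these values did not pass over all genes (interaction of genotype and set, limma, adjusted p = 0.548). Plagl1 (ENSMUSG00000019817.18) lies on chromosome 10 from 13060504 to 13131694.

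Peg3 encodes a large zinc finger protein that has been linked to growth and to cell death. It stood at 39.6, 23.7, 28.6, 27.4 and 25.5 FPKM in mutants 1 to 5, against 21.9, 27.7, 21.6, 49.2 and 34.2 FPKM in controls 1 to 5. Control 4 was the highest library, and mutant 1 the highest mutant. The means were 29.0 ± 6.22 FPKM in mutants and 30.9 ± 11.4 FPKM in controls (SD, n = 5 each), a log2 difference of -0.05 with a 95% interval from -0.52 to 0.42 (limma, adjusted p = 0.960; exact two-sided permutation test, p = 0.865). Within the library sets it was 0.07 in the first and -0.36 in the second, and without control 4 it was 0.13 (adjusted p = 0.763). Peg3 (ENSMUSG00000002265.16) lies on chromosome 7 from 6703892 to 6730431.

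The promoter of Peg3 is shown because it was the only one of the members' promoter windows with the motif GGGGCCCC, known to be bound by PLAGL1. The windows run from 250 bases before to 50 bases after a start (RefSeq, GRCm38.p6). The motif was searched as written, being its own reverse complement. It was found in 1 of 17 windows of the 8 members in the table and in 1.08% of the 32851 windows of all genes. H19 and Cdkn1c had no window in the table. Capitals mark the motif in the window at chr7:6730370-6730669, read along the minus strand.
Peg3: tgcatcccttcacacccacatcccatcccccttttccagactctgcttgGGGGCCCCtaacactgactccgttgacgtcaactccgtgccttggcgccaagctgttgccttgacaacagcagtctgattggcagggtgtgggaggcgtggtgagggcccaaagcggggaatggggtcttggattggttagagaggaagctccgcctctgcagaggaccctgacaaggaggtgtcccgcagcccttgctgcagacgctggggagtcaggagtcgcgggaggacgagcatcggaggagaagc
The match describes these letters and shows no binding. The members' windows held 2 to 45 CpG dinucleotides each, with a median of 9, against a median of 7 over all windows. Grb10 had the window with 45 and Plagl1 one with 26.

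Usp29, whose annotated start lies inside the same window on the opposite strand, is transcribed away from Peg3. It averaged 1.41 ± 0.316 FPKM in mutants and 0.879 ± 0.390 FPKM in controls (SD, n = 5 each), a log2 difference of 0.37 (SE 0.15; limma, adjusted p = 0.528). The other gene of the cluster in the files, Zim1, stayed under 1 FPKM in each library.

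Ndn encodes necdin, a protein of the MAGE family that is best known from neurons that have left the cell cycle. It stood at 63.8, 38.9, 44.8, 49.0 and 57.1 FPKM in mutants 1 to 5, against 47.2, 28.9, 51.6, 50.2 and 42.9 FPKM in controls 1 to 5. Mutants 1 and 5 lay above each control, and control 2 was the lowest of all. The means were 50.7 ± 9.87 FPKM in mutants and 44.1 ± 9.18 FPKM in controls (SD, n = 5 each), a log2 difference of 0.20 with a 95% interval from -0.18 to 0.58 (limma, adjusted p = 0.747; exact two-sided permutation test, p = 0.349). The first set alone gave 0.15 and the second 0.30, and it was 0.0613 without control 2 and 0.12 without mutant 1. Ndn (ENSMUSG00000033585.5) has a single exon, lies on chromosome 7 from 62346569 to 62350262 and sits within the span of the opposite-strand gene Gm32061.

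Snrpn encodes SmN, a protein of the spliceosomal ribonucleoprotein core that is made mainly in brain. It stood at 19.9, 17.1, 19.9, 17.5 and 20.6 FPKM in mutants 1 to 5, against 11.5, 12.5, 14.4, 24.8 and 17.2 FPKM in controls 1 to 5. The mutants lay close together, above controls 1 to 3, and control 4 lay above each mutant. The means were 19.01 ± 1.58 FPKM in mutants and 16.1 ± 5.34 FPKM in controls (SD, n = 5 each), a log2 difference of 0.28 with a 95% interval from -0.10 to 0.66 (limma, adjusted p = 0.661; exact two-sided permutation test, p = 0.206). Within the library sets it was 0.31 in the first and 0.14 in the second, and it was 0.44 without control 4 and 0.18 without control 1. In the first set without control 4, 3 mutants against 3 controls chosen after the data were seen, Snrpn was higher in mutants by 0.54 (limma, adjusted p = 0.0215). In that fit 15% of all genes passed and the median of all genes lay at 0.21, and with the libraries rescaled to a common median ratio the difference was 0.30 (limma, adjusted p = 0.223, with 1.43% of all genes called). Snrpn (ENSMUSG00000102252.5) lies on chromosome 7 from 59982495 to 60140219.

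Snurf shares its transcript region with Snrpn, so reads of the pair cannot be assigned with certainty. Snurf was at 2.10, 5.25, 3.55, 6.001 and 8.55 FPKM in mutants 1 to 5, against 1.36, 1.61, 2.18 and 11.1 FPKM in controls 1, 2, 3 and 5, and was listed at 0 in control 4. Other neighbours of Snrpn and Ndn gave no call among the 4 tested. Ube3a, a ubiquitin ligase made from the maternal copy in neurons, averaged 25.0 ± 2.08 FPKM in mutants and 21.7 ± 3.58 FPKM in controls (SD, n = 5 each). Peg12 averaged 19.2 FPKM in mutants and 22.4 FPKM in controls. Magel2 reached 1 FPKM in 4 libraries, under the number that the filter asks for.

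Mest, a hydrolase-like protein first known from mesoderm, stood at 99.0, 81.4, 89.1, 119.9 and 97.5 FPKM in mutants 1 to 5, against 61.2, 80.1, 71.7, 109.8 and 95.4 FPKM in controls 1 to 5. Controls 1 to 3 lay below each mutant, and controls 4 and 5 within the mutant range. The means were 97.4 ± 14.4 FPKM in mutants and 83.6 ± 19.3 FPKM in controls (SD, n = 5 each), a log2 difference of 0.23 with a 95% interval from -0.12 to 0.59 (limma, adjusted p = 0.686; exact two-sided permutation test, p = 0.198). Each library set gave 0.18, and without control 1 it was 0.13. Mest (ENSMUSG00000051855.15) lies on chromosome 6 from 30723547 to 30748465, and its exons overlap those of Copg2 on the opposite strand. Copg2, a coat protein of vesicles, averaged 41.0 ± 0.751 FPKM in mutants and 42.0 ± 9.22 FPKM in controls (SD, n = 5 each). Mest was nearest in profile to Grb10 and Snrpn, at 0.19 each.

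**Figure D4:**
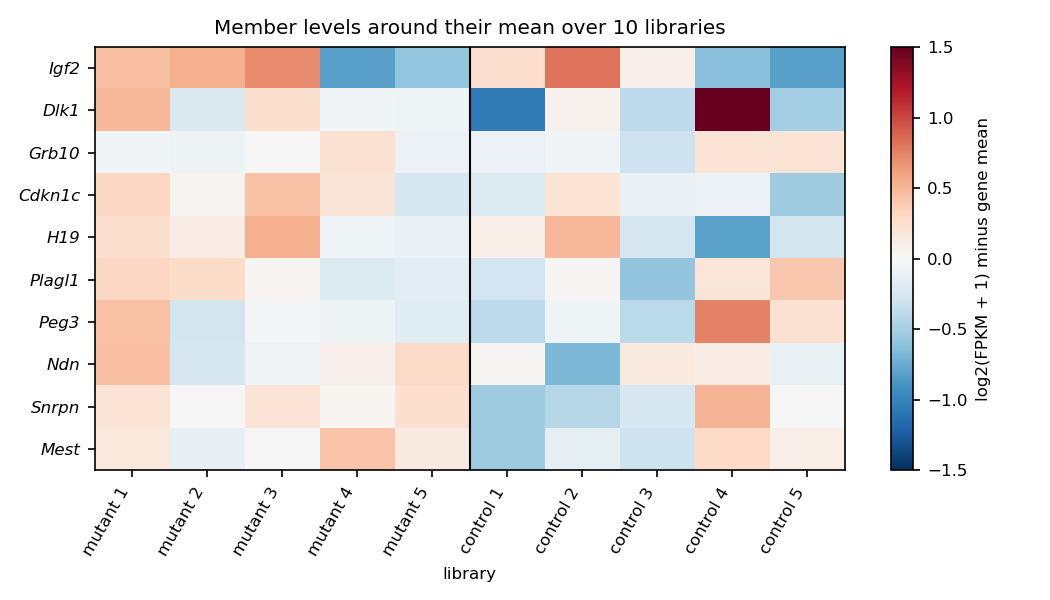
Log2(FPKM + 1) of each imprinted growth gene minus its mean over the 10 libraries (colour), in mutants 1 to 5 left of the line and controls 1 to 5 right of it. Igf2 is low in mutants 4 and 5 and controls 4 and 5, Dlk1 is highest in control 4, and Grb10 varies least.

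Across the 10, 7 members are known to be made from the paternal copy and 3, H19, Cdkn1c and Grb10, from the maternal one. The median log2 difference was 0.16 over the paternally expressed and 0.29 over the maternally expressed members, against 0.11 over all tested genes. The maternally expressed members were spread from 0.012 for Grb10 to 0.29 for H19. By position, 6 of the 10 lie on chromosome 7. Spans of 7 members overlap a gene on the opposite strand, and exons of 6 overlap those of another gene. The kit marks strand, but no source used here says whether counting made use of it.

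Neighbours of the members and imprinted genes of other clusters gave the same count of calls. Of the 64 genes fixed in the 7 lists of neighbours and other clusters, 57 were in the files, 36 were tested and 0 were called (limma, lowest adjusted p = 0.355). Their median log2 difference was 0.17, against 0.11 over all genes, and 8 of the 36, or 22.2%, had an unadjusted p under 0.05, where 8.76% of all tested genes did. H13, which encodes signal peptide peptidase, was the only one of the 36 whose groups did not overlap, where 1.52% of all tested genes lay higher and 0.377% lower without overlap. It stood at 18.6, 17.0, 17.9, 16.7 and 16.3 FPKM in mutants 1 to 5, against 12.5, 11.8, 11.6, 15.7 and 15.9 FPKM in controls 1 to 5 (log2 difference 0.35, SE 0.11, limma, adjusted p = 0.395). Mcts2, a retrogene within the span of H13, averaged 15.3 ± 1.76 FPKM in mutants and 10.9 ± 2.31 FPKM in controls (SD, n = 5 each), a log2 difference of 0.46 (SE 0.14; adjusted p = 0.355). Nnat, a proteolipid of developing neurons, averaged 327 ± 22.2 FPKM in mutants and 257 ± 50.4 FPKM in controls (SD, n = 5 each), a log2 difference of 0.36 (SE 0.14; adjusted p = 0.492).

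Genes around Mest, Plagl1 and Grb10 showed no call either. Copg2 and Cep41 were the tested genes near Mest, with log2 differences of -0.01 and -0.12. Phactr2, near Plagl1, lay at 0.08 and Cobl, near Grb10, at -0.24, with a mean of 1.28 FPKM in mutants and 1.68 FPKM in controls.

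The genes fixed as imprint factors were all measured, and 0 of the 14 were called. Their median log2 difference was 0.12 against 0.11 over all genes. The 3 with the smallest p were Tet1, Zfp57 and Trim28. Tet1, an enzyme that oxidises methylcytosine, stood at 15.8, 11.9, 16.7, 11.04 and 11.6 FPKM in mutants 1 to 5, against 8.83, 9.60, 8.77, 10.5 and 11.5 FPKM in controls 1 to 5. Its log2 difference was 0.40 (SE 0.14; limma, adjusted p = 0.434), and mutant 4 lay below control 5. Zfp57, a zinc finger protein that binds methylated imprinting control regions, averaged 14.2 ± 1.79 FPKM in mutants and 10.5 ± 3.78 FPKM in controls (SD, n = 5 each). Trim28, the corepressor that Zfp57 recruits, averaged 98.7 ± 4.15 FPKM in mutants and 85.5 ± 11.8 FPKM in controls (SD, n = 5 each). In the first library set the log2 differences were 0.59 for Tet1, 0.56 for Zfp57 and 0.26 for Trim28. In the second they were -0.02 for Tet1, -0.15 for Zfp57 and -0.004 for Trim28.

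**Figure D5:**
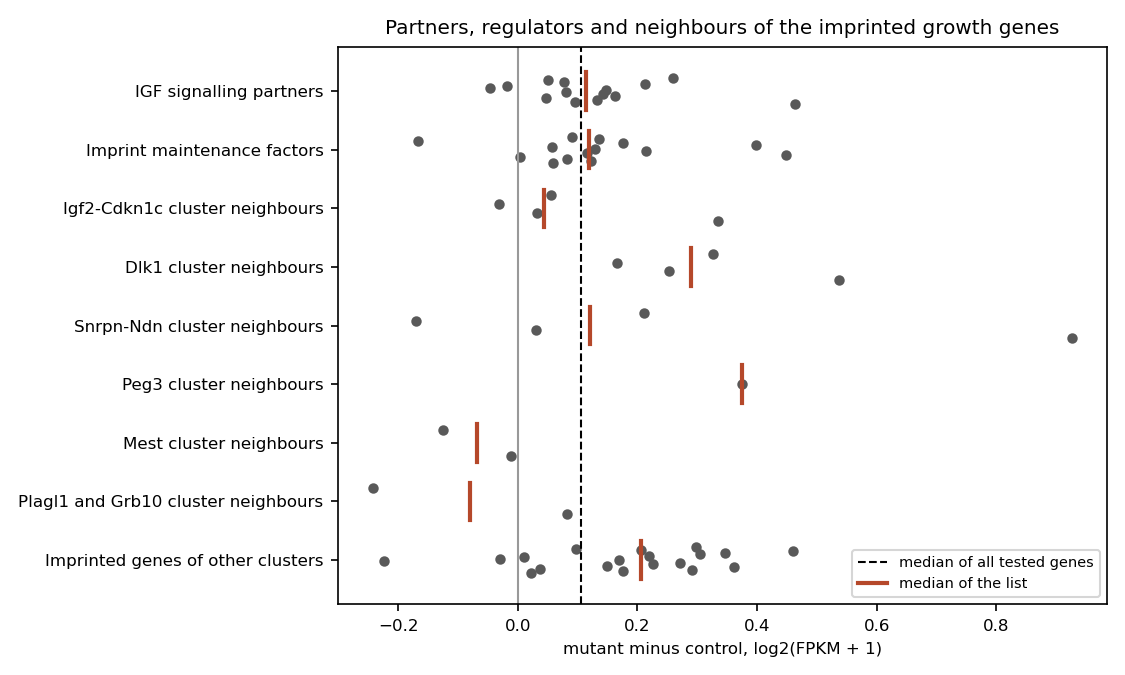
Log2 difference, mutant minus control, of each tested gene (points) in the 9 lists of signalling partners, imprint factors, cluster neighbours and imprinted genes of other clusters, with the list's median (red bar) and the median of all tested genes at 0.11 (dashed line). The point at 0.93 is Snurf, and no point passed the threshold.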

How the data were processed

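RNA from 5 mutant and 5 control libraries was extracted with Trizol and sequenced from stranded, ribosome-depleted total RNA, per the labels' protocols. HISAT2 and GRCm38 (mm10) are named in the notes on processing from the submitters. The authors deposited 1 list of FPKM values per library, and the program behind them was not given in the sources used. Depth was estimated from the FPKM step of a single fragment, shared by 9 to 14 of 542 to 904 low genes, so it is rough and no counting intervals were computed. Here log2(FPKM + 1) was tested with limma 3.58.1 in R 4.3.3, with trend and robust moderation, over the 13522 genes that reached 1 FPKM in 5 or more libraries, at an adjusted p of 0.05. Fold changes on this scale understate the change of low genes. Single genes were also tested by exact two-sided permutation over 252 arrangements (scipy 1.17.1). The fit was also run on simulated data with independent noise for each gene and no library sets. That run cannot show how the fit behaves with the library sets and the outlying control 4 seen here. Coordinates come from GENCODE M21 (GRCm38), to which 35655 symbols matched by name. The named genes were the 10 members, those called in each list or else the 3 with the smallest p, and the 4 nearest in profile to each of the 3 members with the widest range. A few genes that this rule or the marker lists named are not reported here. Members and lists were chosen with earlier results of these data known. Samples with the same replicate number were not paired by the labels.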

Additional observations from a re-analysis of the deposited data

Results flagged for a closer look

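A library lay far from the 4 others of its group in 2 of 38 groups checked, 10 members and 9 marker lists in each genotype, where chance gives about 1 in 20. Neither was a value of a member. The mean log2 level of 8 ventral telencephalon markers was 2.28 in control 4, against 0.293 to 0.589 in the other controls. Dlk1 in the same library was at 9.46 FPKM, and the part of ventral tissue in it was not tested. The mean log2 level of 8 endothelial markers was 2.94 in mutant 3, against 2.34 to 2.46 in the other mutants. H19 was highest in that library, at 241 FPKM. Mutant 3 also had the highest summed mesenchyme, microglial and early excitatory neuron markers of all libraries, at 181, 112.7 and 501 FPKM. The part of vessels or of any of these cells in the H19 level was not tested.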

How the results depend on the processing

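The count of members called was 0 under all other settings tried, and 1 of 10, Snrpn, in the first library set less control 4, where 15% of all genes passed. That fit was added after seeing the data. Member values kept their direction and their side of the threshold in 194 of 219 cases over 22 alternatives, and 24 cases, each short of the threshold, changed sign. With median ratio scaling Igf2 was -0.0042, Grb10 -0.11 and Plagl1 -0.014. Grb10 was -0.0625 with quantile normalization, -0.0428 with scaling to the protein-coding sum and -0.0211 with the library set as a term. Peg3 was 0.0744 in the first set alone and 0.33 in the first set less control 4. In that last set with median ratio scaling Igf2 was -0.0652, Grb10 -0.14, H19 -0.0644, Peg3 0.0922 and Ndn -0.0289. Leaving out a library in turn gave -0.0691 to 0.34 for Igf2 (below 0 without control 4, control 5 or mutant 3), -0.0811 to 0.56 for Dlk1 (below 0 without control 1), -0.0639 to 0.0652 for Grb10 (below 0 without control 1, control 3 or mutant 4), -0.0276 to 0.22 for Plagl1 (below 0 without control 3) and -0.16 to 0.13 for Peg3 (above 0 without control 4, control 5 or mutant 2).

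The cause of these shifts was not tested. The count over all genes was 21, and was 2 with no filter and 11 without trend or robust moderation. It was 35 with quantile normalization, 74 with the library set as a term, 101 in the first set alone, 2023 in the first set less control 4 and 194 there with median ratio scaling. The shares higher in mutants were 57.1% in the fit reported, 36.7% with median ratio scaling, 37.1% with quantile normalization and 36% with the protein-coding sum. Without each library in turn the count ran from 2 to 79, with 2 when control 1 or 2 or mutant 2 or 3 was left out, 4 for control 3, 9 for mutant 1, 10 for mutant 5, 11 for control 4 and 79 for control 5. Genes of the lists were called 0 times, but 1 (Mcts2) without control 5, so 0 to 1 over those fits, and 16 in the first set less control 4, where median ratio scaling gave 0. Rnu11 was -2.02 in the first set alone and -1.70 to -1.31 without each library in turn, passing without mutant 4 (adjusted p = 0.0494). With the replicate block 14 genes and 0 members were called. Correlations of same-numbered libraries ran from -0.107 to 0.521, so the numbers were not taken as pairs, and 3 of 5 mutants correlated best with the control of their own number. Dlk1 had no value with a filter of 5 FPKM.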

Other observations

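Levels of other cell types, given as the mean log2(FPKM + 1) over the fixed markers, describe the tissue in which the imprinted genes were measured. Markers of microglia and macrophages averaged 2.88 ± 0.624 in mutants and 2.23 ± 0.383 in controls (SD, n = 5 each), with 0 of 7 tested genes called and a median log2 difference of 0.73. C1qa, a complement component of these cells, stood at 18.2, 16.4, 23.8, 7.33 and 6.89 FPKM in mutants 1 to 5, against 8.92, 10.9, 7.04, 4.82 and 2.32 FPKM in controls 1 to 5. Early excitatory neuron markers averaged 5.18 ± 0.388 in mutants and 4.73 ± 0.154 in controls, and radial glial markers 5.43 ± 0.139 and 5.22 ± 0.232, with 0 called among 8 and 9 tested.

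Endothelial markers averaged 2.52 ± 0.241 in mutants and 2.32 ± 0.263 in controls, erythroid markers 6.62 ± 0.345 and 6.36 ± 0.524, and markers of choroid plexus and hem 3.75 ± 0.198 and 3.84 ± 0.214 (SD, n = 5 each). Mesenchyme, pericyte and meningeal markers averaged 2.52 ± 0.413 in mutants and 2.39 ± 0.352 in controls, ventral markers 0.726 ± 0.438 and 0.802 ± 0.834, and cortical identity markers 4.65 ± 0.0716 and 4.46 ± 0.202. In each of these 6 lists 0 tested genes were called.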
